A study of Arabidopsis thaliana with 4 samples.

Results

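The circadian clock of *Arabidopsis* was followed here through the chromatin of 10 genes: CCA1 (AT2G46830), LHY (AT1G01060), TOC1 (AT5G61380), PRR5 (AT5G24470), PRR7 (AT5G02810), PRR9 (AT2G46790), GI (AT1G22770), ELF3 (AT2G25930), ELF4 (AT2G40080) and LUX (AT3G46640). They were chosen by name as the central genes of the clock. All 10 were among the 23645 genes that could be tested. Their windows, the gene body and 2 kb upstream, held 22 of the 27679 open regions found in the series, and 19 of these 22 were open in every library.

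Nuclei were taken from root tips (5 mm) of wild-type Col-0, the reference accession. Control plants grew on plain medium, and stressed plants grew on the same medium with sorbitol, a sugar alcohol that lowers the water potential around the root. Each condition had 2 libraries, control replicates 1 and 2 and stress replicates 1 and 2, made on a droplet platform that records chromatin accessibility (ATAC) beside RNA for each nucleus. The ATAC reads mark where a transposase could cut, and the number of cuts in a region is taken as its accessibility. The RNA rows carry no gene names in the files used here, so the transcripts of the clock genes were not analysed. The time of day at harvest was not given in the sources used here, and the clock genes are rhythmic, so a difference between libraries in harvest time and a difference in treatment cannot be told apart.

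The plant clock is a loop of repressors that act at different times of day. CCA1 and LHY are MYB transcription factors of the morning that repress the evening genes by binding the evening element. The pseudo-response regulators PRR9, PRR7, PRR5 and TOC1 follow one another through the day and repress CCA1 and LHY. GI is an evening protein that stabilises the F-box protein ZTL, which marks TOC1 and PRR5 for degradation. ELF3, ELF4 and LUX form the evening complex, in which LUX binds DNA and ELF3 is the scaffold, and which represses PRR9, PRR7, GI and LUX itself at night. The clock also times the response to water deficit: TOC1 binds the promoter of a gene of abscisic acid (ABA) signalling, and GI holds back a kinase of salt tolerance.

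The libraries held 47853119 (control replicate 1) to 75473335 ATAC counts (stress replicate 1) and 6069 to 15302 called nuclei. Since 15000 nuclei were loaded per library, the 15302 barcodes called in stress replicate 1 cannot all be single nuclei. Control replicate 1 stood apart: it had the fewest nuclei, and its median nucleus had 4851 counts against 3423.5 to 3898.5 in the others. Any pair of libraries shared 124 to 342 called barcodes, at most 2.35% of the smaller library. Of 75 marker loci of root cell types, 45 held a region open in all libraries, and so did LHCA1 and LHCA2, photosynthetic genes that a root tip should hardly use, at a median of 39.9 counts per 1000000 (CPM) per kb. None of these marker loci passed the threshold between stress and control, and the median change of the 12 marker lists lay between -0.07 and 0.18 on the log2 scale. Since all nuclei of a library were summed, fewer nuclei of a type and less open chromatin per nucleus cannot be told apart.

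Regions are merged peaks, and a region counted as shared when all 4 libraries had a peak there. Of the 10 genes, 9 had a shared region across the gene start, 796 to 954 bases wide like all their shared regions. The exception was GI, whose nearest region ended at position -343 from its start. CCA1, TOC1, PRR5 and ELF3 each had another region upstream, and GI had a pair of them. The most distal regions of CCA1 and GI lay mostly outside the windows, which start at chr2:19243591 and chr1:8059751, and were counted in full. LHY, PRR7 and GI had a shared region at the 3′ end, and LUX had one inside the gene, at positions 1849 to 2796 from its start. Of the 19 shared regions, 16 also lay in the window of a neighbouring gene, so a count there cannot be given to the clock gene alone. The regions of PRR9 at its start, of GI at -1227 to -343 and of ELF3 at its start belonged to no other gene.

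**Figure D1:**
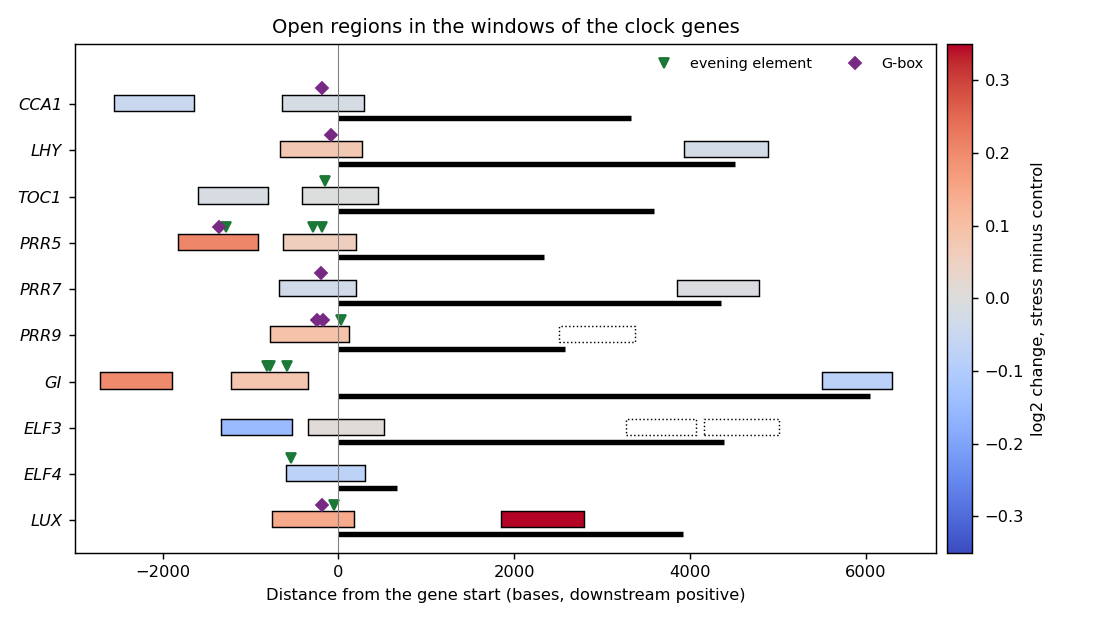
Open regions (boxes) around the start of each clock gene, in bases from the gene start; black bars are gene bodies. Fill gives the log2 change between stress and control, dotted boxes are the 3 regions without a peak in every library, and symbols mark evening elements (triangles) and G-boxes (diamonds) inside the 19 shared regions. The region inside the LUX gene has the strongest fill (0.35), and GI is the gene without a region over its start.

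The sequences upstream of the gene starts carry the short motifs by which clock proteins find their targets, and 5 of them are shown because the regions described next lie over them. They are the 300 bases before the gene start as read from RefSeq TAIR10.1, in the direction of the gene, except for GI, where the 300 bases lie inside its open region, at positions -850 to -551. Capitals mark any of 6 motifs searched on both strands: the evening element AAAATATCT bound by CCA1 and LHY, the CCA1-binding site AAAAATCT, the G-box CACGTG, the LUX-binding site GATACG or GATTCG, the ABA-responsive element (ABRE) ACGTGTC or ACGTGGC, and the site GGTCCCAC of the TCP factor CHE. An ABRE and a G-box share letters where both are found. The windows are chr2:19245291-19245590 (plus strand) for CCA1, chr5:24674663-24674962 (plus) for TOC1, chr2:19232307-19232606 (plus) for PRR9, chr3:17182742-17183041 (plus) for LUX and chr1:8060901-8061200 (plus) for GI.
CCA1: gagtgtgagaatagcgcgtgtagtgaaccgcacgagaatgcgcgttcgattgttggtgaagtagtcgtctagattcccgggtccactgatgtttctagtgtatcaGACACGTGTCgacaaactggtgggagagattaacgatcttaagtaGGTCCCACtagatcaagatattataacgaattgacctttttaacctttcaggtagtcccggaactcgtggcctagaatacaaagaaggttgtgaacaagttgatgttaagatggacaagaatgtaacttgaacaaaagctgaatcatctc
TOC1: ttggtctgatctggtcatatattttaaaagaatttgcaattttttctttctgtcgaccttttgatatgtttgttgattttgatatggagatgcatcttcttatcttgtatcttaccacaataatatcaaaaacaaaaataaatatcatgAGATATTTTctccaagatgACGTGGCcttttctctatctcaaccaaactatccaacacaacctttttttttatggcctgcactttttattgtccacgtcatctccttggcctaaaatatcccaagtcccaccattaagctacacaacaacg
PRR9: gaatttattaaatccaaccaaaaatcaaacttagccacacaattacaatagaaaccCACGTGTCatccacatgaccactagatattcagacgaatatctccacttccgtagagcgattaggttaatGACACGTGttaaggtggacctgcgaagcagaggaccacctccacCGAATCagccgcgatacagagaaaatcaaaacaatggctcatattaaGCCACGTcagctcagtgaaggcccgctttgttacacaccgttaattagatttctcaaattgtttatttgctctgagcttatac
LUX: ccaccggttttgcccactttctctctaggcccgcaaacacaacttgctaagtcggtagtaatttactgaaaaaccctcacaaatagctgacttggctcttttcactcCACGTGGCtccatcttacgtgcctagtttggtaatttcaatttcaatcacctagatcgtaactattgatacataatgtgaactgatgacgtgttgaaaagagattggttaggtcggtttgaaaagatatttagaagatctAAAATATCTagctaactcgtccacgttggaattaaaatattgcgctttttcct
GI: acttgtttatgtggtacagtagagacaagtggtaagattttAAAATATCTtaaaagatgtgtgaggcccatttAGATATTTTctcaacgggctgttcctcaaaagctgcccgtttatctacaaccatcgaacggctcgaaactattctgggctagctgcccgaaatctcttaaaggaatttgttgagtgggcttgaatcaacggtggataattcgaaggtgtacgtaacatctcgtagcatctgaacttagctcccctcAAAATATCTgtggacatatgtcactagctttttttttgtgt

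In the 500 bases upstream of the start, the evening element stood before 3 of the 10 clock genes (TOC1, PRR5 and LUX), against 4.44% of 27443 protein-coding genes. The G-box stood before 5 (CCA1, LHY, PRR7, PRR9 and LUX), against 9.35% of genes. An ABRE stood before 7 (CCA1, LHY, TOC1, PRR5, PRR7, PRR9 and LUX), against 9.10% of genes. The LUX-binding site was before 5 genes (22.6% of all genes) and the CCA1-binding site before 3 (12.5%). The CHE site was before CCA1 alone, at position -150, and before 0.517% of all genes. Across the whole shared regions there were 10 evening elements in 7 of 19 regions, 3 of them in the GI region at positions -809, -777 and -591. PRR5 had 3 as well, a pair close to its start and 1 in the distal region, and 30 bases around each are shown with the evening element in capitals to compare their flanks. The pair at -292 and -187, in reverse orientation, are chr5:8358819-8358848 and chr5:8358714-8358743, and the third, at -1279, is chr5:8359806-8359835 (minus strand of the chromosome for all). A match is a string of letters and not a measured binding site.
PRR5 at -292: caattctactAGATATTTTttcaaatccaa
PRR5 at -187: gattttttctAGATATTTTcttttctccac
PRR5 at -1279: acccaacaacAAAATATCTagccgcggaaa

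To learn how open the clock genes were, their levels were taken per kb of peak, since genes differ in the width of their regions. Levels are in CPM after TMM scaling, each library being counted in its own peaks. A gene level is scaled to the total of the gene table, where 1 region can count for several genes, and a region level to the total of the region table, so that the same counts give a lower CPM for a gene than for a region. In this order PRR9 was highest, with 87.1 ± 3.14 CPM per kb (SD, n = 4 libraries), a level above that of 99.4% of all genes. LHY (62.8 ± 0.70), GI (58.3 ± 1.70), CCA1 (57.6 ± 0.80) and PRR7 (56.7 ± 0.28 CPM per kb) followed. PRR5 (47.6 ± 3.48), LUX (46.0 ± 4.32), TOC1 (45.6 ± 1.60) and ELF4 (39.9 ± 2.46 CPM per kb) came after them. ELF3 was lowest, with 30.0 ± 1.21 CPM per kb, and was the only one under the median of all genes (32.3 CPM per kb). GI, CCA1 and PRR7 differed from each other by less than the SD of GI, and PRR5, LUX and TOC1 by less than the SD of PRR5 or of LUX, so the order within each of these groups is not settled.

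The main question was whether osmotic stress changed the accessibility of the clock genes. None of the 10 passed an adjusted p of 0.05 in edgeR, where 0.863% of all genes did. LUX and PRR5 had an unadjusted p under 0.05, as had 21.8% of all genes, and DESeq2, which called 4.47% of all genes, called LUX alone. Of the 19 shared regions 1 passed, inside the LUX gene, against 1.15% of all regions (0.927% for rises, and 0.660% for rises of genes). With no adjustment 3 regions were under 0.05, as were 23.5% of all, and DESeq2, which called 12.4% of all regions, called these 3. Changes were small and went both ways: 5 genes lay above 0 and 5 below, with a median of 0.02 on the log2 scale against -0.002 over all genes. The libraries of the groups did not overlap for 6 of the 10 genes, a share close to that over all genes (57.3%), and for 7 of the 19 regions (58.5% over all). These calls moved with the libraries: 4 genes and 11 regions of the clock passed without control replicate 2, where 43.4% of all genes and 43.3% of all regions did, and 3 genes and 4 regions without control replicate 1 (20.3% and 19%). None passed without a stress library, where few of all genes and regions did. In such fits the lone library of a group is assumed to vary like the others, and the fit without a control library had a smaller biological coefficient of variation over genes (0.0259) than the fit on all libraries (0.0529) or without a stress library (0.0698).

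**Figure D2:**
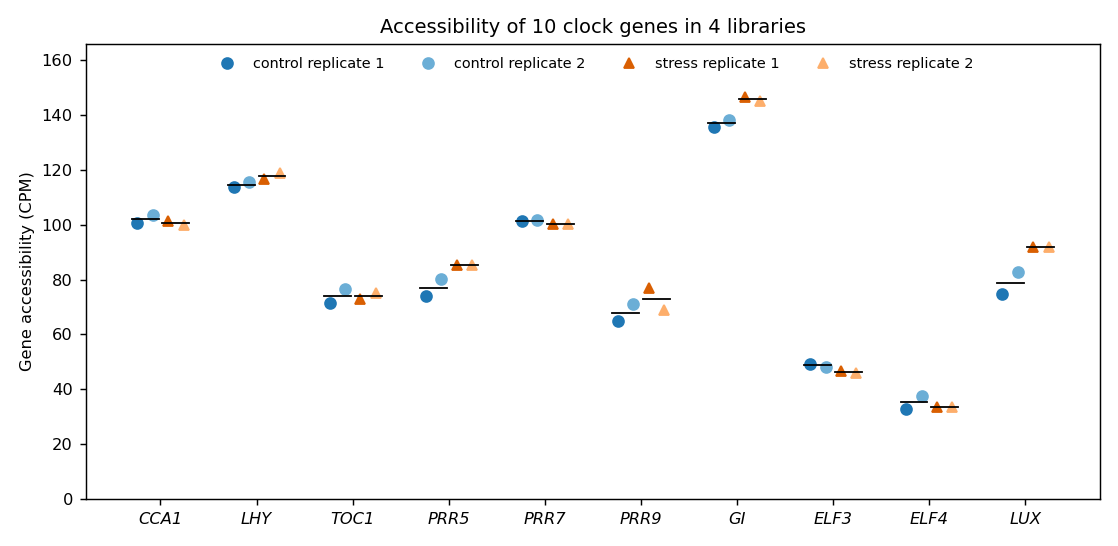
Accessibility of each clock gene (CPM, summed over its shared regions) in the 4 libraries; circles are control, triangles are stress, and bars are the means of 2 libraries. Both stress libraries of LUX (91.8 and 91.9 CPM) and PRR5 (85.5 and 85.5 CPM) sit above both controls, while CCA1 and TOC1 overlap.

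The make-up of the libraries differed between the conditions and also between the control libraries. When nuclei were clustered by their accessibility, cluster 3 held 5.12% and 8.77% of the nuclei in control and 13.4% and 13.8% under stress. Cluster 7 held 4.68% and 6.67% against 10.29% and 10.14%, and cluster 11 held 0.923% and 2.00% against 3.76% and 3.89%. With the same number of nuclei per cluster in every library, most of the larger changes were smaller, on the log2 scale. LUX then had 0.18 (adjusted p 0.128) in place of 0.22, PRR5 0.11 in place of 0.15, PRR9 0.03 in place of 0.10 and GI 0.07 in place of 0.09. ELF3 had -0.03 in place of -0.08 and ELF4 -0.01 in place of -0.07, while PRR7 had -0.08 in place of -0.02.

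CCA1 and LHY, the morning repressors, had changes near 0. CCA1 had 101 and 104 CPM in the control libraries and 101 and 99.8 CPM in the stress libraries. Its groups overlapped, and the change was -0.02 on the log2 scale (95% interval -0.14 to 0.09, adjusted p 0.796). LHY had 114 and 116 CPM in control and 117 and 119 CPM under stress, a change of 0.04 (interval -0.09 to 0.17, adjusted p 0.702). Both stress libraries of LHY lay above both controls, by a margin smaller than the spread within stress. At the start of CCA1 (chr2:19244944-19245884), the region with the G-box, ABREs and CHE site shown before, levels were 115, 122, 117 and 116 CPM in control 1, control 2, stress 1 and stress 2 (change -0.02, adjusted p 0.897). Both regions of CCA1 overlap the neighbour PSI-P (AT2G46820). The upstream one (chr2:19243043-19243948) had 76.8 and 75 CPM in control and 74.4 and 72.5 CPM under stress (-0.05, adjusted p 0.582), so that both stress libraries lay slightly below both controls. The start region of LHY (chr1:37605-38538) was lowest in control replicate 1 with 114 CPM, and the other libraries lay between 127 and 128 CPM (0.08, adjusted p 0.60). Without control replicate 2 the change was 0.16 (adjusted p 0.000875), and without control replicate 1 it was 0.00044. At the 3′ end of LHY (chr1:32984-33937) levels were 102 and 91.4 CPM in control and 93.3 and 96.3 CPM under stress (-0.03, adjusted p 0.843), and the change was -0.10 (adjusted p 0.047) without control replicate 2 and 0.05 without control replicate 1.

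Among the pseudo-response regulators, PRR9 and PRR7 act early in the day, and neither passed the threshold. PRR9, with its single region at the start (chr2:19231824-19232725), had 64.7 and 71.3 CPM in control and 76.9 and 68.8 CPM under stress, so that the groups overlapped (change 0.10, interval -0.06 to 0.26, adjusted p 0.422). The change was 0.17 (adjusted p 2.33e-05) without control replicate 2 and 0.03 when control replicate 1 was left out. Leaving out stress replicate 1 gave 0.02, and leaving out stress replicate 2 gave 0.18 (adjusted p 0.541). On the region scale its levels were 123 and 135 CPM in control and 145 and 130 CPM under stress (0.09, adjusted p 0.580), with 0.16 (adjusted p 0.00206), 0.03 and 0.01 when control replicate 2, control replicate 1 and stress replicate 1 were left out in turn. The PRR9 peak was 902 bases wide in stress replicate 1 and 769 to 783 in the others, and once the fit allowed for the width of the peaks it gave -0.02. PRR7 differed least among libraries, with 101 and 102 CPM in control and 100.2 and 100.4 CPM under stress (-0.02, interval -0.13 to 0.09, adjusted p 0.844). Its stress libraries lay just below both controls. The start region of PRR7 (chr5:641832-642711), which also overlaps RHL2, had 134 and 138 CPM in control and 133 and 134 CPM under stress (-0.03, adjusted p 0.839). Its 3′ region (chr5:637248-638176) had 55.1 to 58.0 CPM in the 4 libraries and overlaps the neighbour CDL1.

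PRR5 follows later in the day, and its level was higher in both stress libraries. PRR5 had 73.9 and 80.2 CPM in control and 85.5 CPM in each stress library. The groups did not overlap, and the change of 0.15 (SE 0.05, interval 0.03 to 0.27) had an adjusted p of 0.161. Leaving out a control library brought it past the threshold, with 0.09 (adjusted p 0.0277) without control replicate 1 and 0.21 (adjusted p 2.31e-08) without control replicate 2. Of its 2 regions, the distal one (chr5:8359463-8360373, positions -1827 to -917) had 78.5 and 84.7 CPM in control and 94.5 and 94.1 CPM under stress. That is a change of 0.21 (SE 0.06, adjusted p 0.115), which DESeq2 called with an adjusted p of 0.0119 and edgeR without control replicate 1 (0.15, adjusted p 0.00627) or control replicate 2 (0.26, adjusted p 5.21e-06). This region holds the third evening element printed before and also overlaps the noncoding RNA gene AT5G03755. The region at the start of PRR5 (chr5:8358347-8359179), with the pair of evening elements, had 61.7 and 67.3 CPM in control and 67.0 and 67.5 CPM under stress (0.06, adjusted p 0.549). Its change was 0.12 without control replicate 2 (adjusted p 0.0375) and -0.0012 without control replicate 1.

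TOC1 represses CCA1 and LHY in the evening. Its control libraries had 71.6 and 76.7 CPM and its stress libraries 73.0 and 75.2 CPM, the stress values lying between the control values. The change was -0.001 (interval -0.12 to 0.11, adjusted p 0.991). The start region (chr5:24674546-24675412) had 82.2 and 90.6 CPM in control and 87.4 and 85.3 CPM under stress, and the upstream region (chr5:24673363-24674163) 53.7 and 54.9 against 50.7 and 56.8 CPM. Neither differed by more than the spread between libraries (adjusted p 0.985 and 0.902).

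GI, which steadies ZTL in the evening, had the most open bases of the 10 genes (2377 to 2448 per library). Summed over its regions it had 136 and 138 CPM in control and 147 and 145 CPM under stress, with no overlap (change 0.09, interval -0.07 to 0.25, adjusted p 0.444). Without control replicate 2 the change was 0.10 (adjusted p 0.0034), and without control replicate 1 it was 0.08 (adjusted p 0.0501). The region that holds its 3 evening elements (chr1:8060524-8061408) was the most open of all 19 per kb, at 188 ± 8.30 CPM per kb (SD, n = 4), above 99.6% of all regions. It had 153 and 163 CPM in control and 169.5 and 165.2 CPM under stress (0.08, adjusted p 0.642). The change there was 0.13 (adjusted p 0.00225) without control replicate 2 and 0.04 (adjusted p 0.455) without control replicate 1. Farther upstream, the region at chr1:8059038-8059852 had 58.7 and 57.0 CPM in control and 66.3 and 66.7 CPM under stress. This change of 0.20 (SE 0.05, interval 0.09 to 0.31) had an adjusted p of 0.0796, and 0.00721 in DESeq2. The region overlaps PAB3, a poly(A)-binding protein gene, and most of it lies outside the GI window. It passed without control replicate 1 (0.22, adjusted p 0.000557) and without control replicate 2 (0.18, adjusted p 0.00271), and had 0.13 (adjusted p 0.322) with the same nuclei per cluster. At the 3′ end of GI (chr1:8067253-8068048) levels were 46.3 and 41.9 CPM in control and 41.0 and 42.4 CPM under stress (-0.08, adjusted p 0.489), and the change was -0.15 (adjusted p 0.0444) without control replicate 2 and -0.0074 (adjusted p 0.950) without control replicate 1.

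The scaffold of the evening complex, ELF3, and its small partner ELF4 had lower mean levels under stress, and neither passed the threshold. ELF3 had 49.4 and 48.2 CPM in control and 46.6 and 45.9 CPM under stress. Both stress libraries were lower, and the change of -0.08 (SE 0.04, interval -0.17 to 0.02) had an adjusted p of 0.305. Its upstream region (chr2:11057603-11058410) had 58.9 and 50.7 CPM in control and 51.6 and 47.0 CPM under stress (-0.15, adjusted p 0.306). This change was -0.26 when control replicate 2 was left out (adjusted p 0.000164) and -0.04 when control replicate 1 was. It was -0.22 and -0.09 when stress replicates 1 and 2 were left out, and -0.07 with equal nuclei from each cluster. At the start of ELF3 (chr2:11058602-11059458) levels were 34.8 and 40.7 CPM in control and 36.4 and 39.8 CPM under stress (0.01, adjusted p 0.953). On the region scale, the single region of ELF4 (chr2:16734652-16735548) had 62.5 and 71.0 CPM in control and 63.1 and 63.6 CPM under stress. As a gene ELF4 had 32.9 and 37.4 CPM in control and 33.4 and 33.7 CPM under stress. The groups overlapped (-0.07, interval -0.23 to 0.08, adjusted p 0.535). Without control replicate 1 the change was -0.16 (adjusted p 0.00856), and without control replicate 2 it was 0.03.

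LUX, the DNA-binding member of the evening complex, had the largest estimated change of the 10 genes over the 4 libraries. Its control libraries had 74.7 and 82.8 CPM and its stress libraries 91.8 and 91.9 CPM, with no overlap. The change was 0.22 (SE 0.06, interval 0.09 to 0.36), a rise of 16.6% in the fit, with an adjusted p of 0.106 in edgeR and 0.0129 in DESeq2. Leaving out control replicate 1 gave 0.15 (adjusted p 9.41e-05) and leaving out control replicate 2 gave 0.30 (adjusted p 2.05e-16). Without stress replicate 1 the adjusted p was 0.427, and without stress replicate 2 it was 0.439.

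The LUX region that passed the threshold lies inside the gene (chr3:17184891-17185838), whose annotated span is chr3:17183042-17186959. It had 48.6 and 51.2 CPM in control and 62.6 and 64.6 CPM under stress. Both stress libraries lay above both controls by more than the spread within either group. The change was 0.35 (SE 0.05, interval 0.23 to 0.47, adjusted p 0.0412 in edgeR and 2.08e-06 in DESeq2). Of 3 annotated LUX transcripts, the shortest ends 5 bases before the region, the next covers 464 of its bases and the longest covers all of it, with 99 coding bases. The region also overlaps 386 bases at the 3′ end of AT3G46650, which runs in the opposite direction, so the count belongs to LUX and to that gene together. The call was lost without stress replicate 1 (0.37, adjusted p 0.15), without stress replicate 2 (0.33, adjusted p 0.230), without the top 5% of nuclei (0.38, adjusted p 0.0556), with library totals (0.35, adjusted p 0.0523) and with all merged regions (0.35, adjusted p 0.0796). With the same number of nuclei per cluster in every library the change was 0.25 (adjusted p 0.0886). The region at the start of LUX (chr3:17182283-17183216), with its evening element at -53 and its G-box at -193, had 93.1 and 106 CPM in control and 111 and 109 CPM under stress. Its change was 0.14 (SE 0.08, interval -0.05 to 0.33, adjusted p 0.315), and 0.05 without control replicate 1 and 0.24 without control replicate 2 (adjusted p 9.48e-06).

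**Figure D3:**
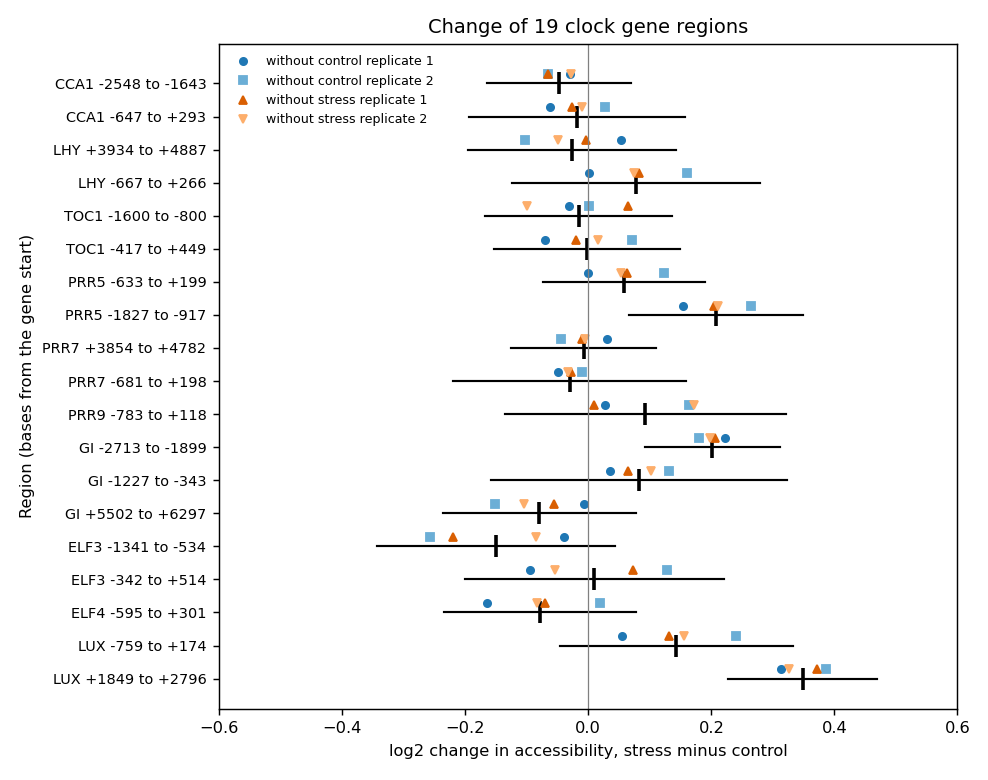
Change of each of the 19 shared regions between stress and control on the log2 scale; black lines are 95% intervals of the edgeR fit over 4 libraries, ticks its estimates, and coloured symbols the fits without 1 library. The intervals of the region inside LUX (0.23 to 0.47), the distal PRR5 region (0.07 to 0.35) and the distal GI region (0.09 to 0.31) lie above 0.

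Another 3 regions had no peak in some libraries and could not be compared. In the body of ELF3 (chr2:11062211-11063011, all of it coding) a peak was called in every library but stress replicate 2, with 22.3, 18.5 and 14.7 CPM in control replicate 1, control replicate 2 and stress replicate 1. Beyond it, at the 3′ end of ELF3 (chr2:11063104-11063954), control replicate 2 had 18.3 and stress replicate 1 had 20.9 CPM. At the 3′ end of PRR9 (chr2:19235112-19235977), stress replicate 2 alone had a peak, with 28.1 CPM. These levels are under those of most shared clock regions, and a missing peak there is a missing call, not a count of 0.

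The genes around the central loop were read from 7 lists. Of 49 genes 44 could be tested, and none passed the threshold in edgeR, against 0.863% of all genes. An unadjusted p under 0.05 was reached by 11 (25%, against 21.8% of all genes). DESeq2, which called 4.47% of all genes, called 2 of the 44, LNK4 and CKB1, a share close to that over all genes. The median change was 0.02, with 26 genes above 0 and 18 below. Among the activators of evening genes, the RVE proteins, which bind the evening element, and their LNK coactivators, LNK4 was highest with 54.2 and 64.3 CPM in control and 75.3 and 73.3 CPM under stress (0.32, adjusted p 0.0941), and RVE6 was lowest (-0.11, adjusted p 0.379). Of close relatives of the members, RVE7 had 43.0 and 48.9 against 53.5 and 53.5 CPM (0.22, adjusted p 0.121) and EEC had a change of -0.08 (adjusted p 0.397). The casein kinase 2 subunit CKB1, which belongs to the kinase that phosphorylates CCA1, had 55.7 and 57.8 CPM in control and 48.6 and 44.9 CPM under stress. Its change of -0.28 (SE 0.05, adjusted p 0.0631) went with narrower peaks under stress, 1518 and 1426 bases in all against 1679 and 1651. Allowing for width, the change of CKB1 was -0.10 (adjusted p 0.195) and that of LNK4, whose peaks were wider under stress, 0.24 (adjusted p 0.0736). CKB2 had a change of 0.004 (adjusted p 0.962). In the window around the gene start CKB1 had -0.52 (adjusted p 0.0314), and with the same nuclei per cluster it had -0.29 (adjusted p 0.0192) and LNK4 0.35 (adjusted p 0.0202). LNK4, RVE7 and CKB1 had changes of 0.21, 0.13 and -0.31 without control replicate 1 and 0.46, 0.31 and -0.25 without control replicate 2. The change of CKB1 was -0.34 without stress replicate 1 and -0.22 without stress replicate 2. RVE6 was at -0.21 without control replicate 2 and at -0.0092 without control replicate 1. EEC was at -0.13 without control replicate 1 and at -0.02 without control replicate 2.

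Of the F-box proteins that control TOC1 and PRR5 stability, LKP2 had a change of -0.06 (adjusted p 0.642). ZTL had 33.9 CPM in control replicate 1 and 15.0 to 21.5 CPM in the other libraries. Its peaks were 944 bases wide in control replicate 1 and 516 to 695 in the other libraries, and the fit gave -0.35 with an SE of 0.33, or -0.09 allowing for width. Without control replicate 1 the change of ZTL was 0.34 (adjusted p 3.09e-05), and without control replicate 2 it was -0.83 (adjusted p 1.42e-42). Of the other modifiers, TIC had a change of 0.13 (adjusted p 0.382) and SKIP, a splicing factor of clock transcripts, of -0.15 (adjusted p 0.216). All 4 photoreceptor genes lay above 0, from PHYA at 0.05 (adjusted p 0.578) to the blue light receptor CRY1 at 0.20 (adjusted p 0.135). Among rhythmic output genes, GRP8 had a change of 0.11 (adjusted p 0.298) and the flowering regulator CO of -0.04 (adjusted p 0.736). TIC and GRP8 had changes of 0.19 and 0.17 without control replicate 2 and of 0.07 and 0.05 without control replicate 1. SKIP had -0.18 without control replicate 1 and -0.13 without control replicate 2. CRY1 had 0.23 without control replicate 1 and 0.16 without control replicate 2.

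To compare the clock genes between groups of nuclei, nuclei were clustered on all shared regions except those of the 10 genes. Of 18 clusters, 13 had at least 50 nuclei in every library and were used. None could be named: 0 of the 130 leading genes of the clusters were on a marker list, and the largest mean difference of a marker list in a cluster was 0.50 on the log2 scale. Clusters are therefore given by number, and no place in the root tip is read from them. The leading genes of clusters 1, 5 and 8 were all loci of chromosome 2. Among them were AT2G07733 (3.48 higher in cluster 1 on the log2 scale) and AT2G07672 (1.92 higher in cluster 8). Cluster 6 shared several of these leading loci, such as AT2G07733 (1.08 higher there) and AT2G00490 (1.05 higher). What sets these clusters apart was not tested. PRR5 and LUX had the widest ranges of the means. PRR5 went from 29.1 ± 3.0 CPM per kb in cluster 2 to 59.0 ± 6.50 in cluster 10 (SD, n = 4 libraries), a 2.03-fold range. LUX ranged 1.94-fold, from 30.8 ± 4.29 CPM per kb in cluster 6 to 59.7 ± 4.43 in cluster 10. These ranges are above those of 77.9% and 73.2% of all genes, whose median was 1.72-fold. The order of the ranges is not settled: on the log2 scale they were 1.02 for PRR5 (SD over libraries 0.25), 0.95 for LUX (SD 0.33) and 0.78 for ELF3 (SD 0.21), and without control replicate 1 ELF3 had a wider range (0.91) than PRR5 (0.89) or LUX (0.85). TOC1 (32.8 ± 1.96 to 54.3 ± 3.24 CPM per kb), GI (41.8 ± 3.20 to 67.0 ± 3.45), ELF4 (31.8 ± 4.49 to 50.9 ± 5.82), PRR7 (42.3 ± 0.98 to 67.4 ± 3.57) and PRR9 (72.5 ± 4.00 to 109.7 ± 7.50) had their highest level in cluster 10 as well. ELF3 went the other way, with its lowest level in cluster 10 (21.7 ± 1.19 CPM per kb) and its highest in cluster 4 (37.2 ± 1.32 CPM per kb). CCA1 and LHY hardly varied, by 1.25-fold and 1.21-fold, ranges as small as those of the lowest 2.18% and 0.639% of all genes.

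Cluster 10 held 1641 nuclei, 3.20% to 3.74% of each library. It was led by AT1G51840 and AT2G14760, which were 2.31 and 1.91 higher there on the log2 scale than in the other clusters, and its nuclei were deep, with a median of 5270.5 to 13651 counts. Cluster 3, led by AT1G51840 too, was the next highest for PRR5, PRR7, PRR9, GI, ELF4 and LUX, at 4964.5 to 7059 counts. Cluster 12, at 5874.5 to 14768 counts, and cluster 7, at 5190 to 10834, were deep as well and were the highest for none of the clock genes. AT1G51840 led clusters 7 and 12 too (1.58 and 1.33 higher on the log2 scale), so it does not set clusters 10 and 3 apart from them. CCA1 and LHY had their lowest levels in cluster 12. The part of depth in these levels was not tested. Neighbours in the order of clusters rarely differed: in 6 of 120 neighbouring pairs the libraries of one cluster all lay above those of the other. The lowest and the highest cluster did not overlap for any gene but LHY. The clusters were ordered by these same levels, so neither count is a test, and the share over all genes was not counted. Without the top 5% of nuclei cluster 10 was highest for PRR7, PRR9, ELF4 and LUX, without control replicate 2 for those and GI, and without stress replicate 2 for those, GI and PRR5. With fewer clusters (9), 1 cluster was highest for TOC1, PRR5, PRR7, PRR9, GI, ELF4 and LUX and lowest for ELF3.

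**Figure D4:**
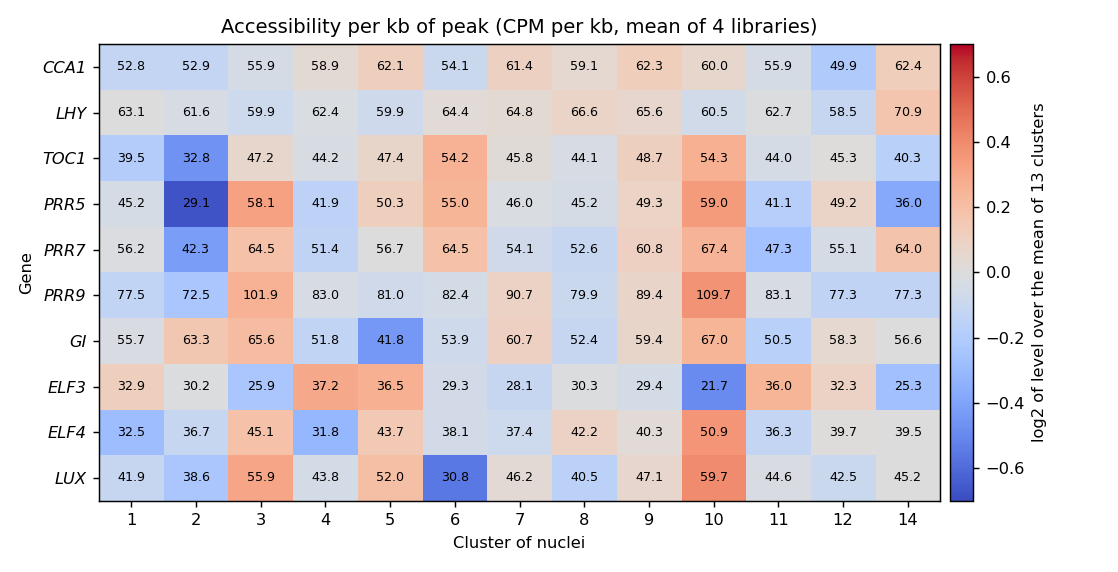
Mean level of each clock gene (CPM per kb of peak, 4 libraries) in 13 clusters of nuclei; numbers are the levels and colour the log2 ratio to the mean of the gene over clusters. The means of PRR5 and LUX range from 29.1 to 59.0 and from 30.8 to 59.7 CPM per kb, and those of CCA1 and LHY spread least.

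Across the 13 clusters, which share their 4 libraries and differ in depth, TOC1 and PRR5 were most alike of the clock genes (Pearson r = 0.90), while ELF3 and GI ran opposite (r = -0.73). CCA1 and LHY had r = 0.49. Of all genes without a region in common, TOC1 was most like AT5G58950, LON2 and ALP (r = 0.97, 0.96 and 0.96). CCA1 was most like AT2G09585 and AT2G44920 (r = 0.88 each) and NET3C (r = 0.86). AT2G09585 and AT2G44920 had the same r (0.877012), and 1 region can count for several genes. LHY was most like ALG12 (r = 0.88), AT1G70190 and AT1G16350 (r = 0.86 each), although CCA1 and LHY had narrow ranges. These values are the highest of 23643 correlations for CCA1 and 23641 for LHY, so they are no test.

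Stress was then compared with control inside each cluster. Of 130 tests of a clock gene in a cluster, none passed the threshold in edgeR, where 0.307% of all 306953 gene tests did, and none in DESeq2. With no adjustment 18 were under 0.05 (13.8%, against 10.5% of all) in edgeR and 8 in DESeq2 (6.15%, against 4.25%), which called 0.0841% of all gene tests. The clusters share their 4 libraries, so counts of clusters above or below 0 are not independent of the change over all nuclei and are no test. The share of all genes with as many clusters on one side was not counted. LUX lay above 0 in 12 of 13 clusters, with a median of 0.22 and its lowest adjusted p in cluster 14 (0.91, SE 0.27, adjusted p 0.104). PRR5 lay above 0 in 11 of 13 clusters, with a median of 0.19, with 0.35 in cluster 4 (SE 0.10, adjusted p 0.126) and -0.27 in cluster 10 (SE 0.09, unadjusted p 0.00373, adjusted p 0.212), the cluster where its level was highest. LUX was at -0.12 in cluster 10 (adjusted p 0.693). ELF4 in cluster 3 had -0.38 (SE 0.10, adjusted p 0.123). PRR7 lay below 0 in 10 of 13 clusters, by little (median -0.05). With 9 clusters, where 0.668% of all passed, PRR5 passed in 1 (0.38, adjusted p 0.0472) and LUX in another (0.45, adjusted p 0.0288). Without control replicate 2 (2.35% of all), PRR5 passed in clusters 4 and 12 (adjusted p 0.000212 and 0.0418) and LUX in clusters 6 and 14 (adjusted p 0.049 and 0.00168), and without control replicate 1 (1.07% of all), ELF4 passed in cluster 3 (-0.41, adjusted p 0.012).

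The region inside LUX was followed in the same clusters. Both stress libraries lay above both controls in 9 of 13 clusters, which 1.64% of all regions matched or exceeded. The region was chosen for its change over all nuclei, so this count describes where that change lay and is no test. Cluster 5 had 51.7 and 52.3 CPM in control and 69.9 and 69.7 CPM under stress, and cluster 9 had 45.7 and 48.8 against 59.6 and 54.3 CPM. Clusters 1 and 10 went the other way: cluster 1 had 57.1 and 40.0 CPM in control and 35.0 and 39.4 CPM under stress, and cluster 10 had 85.9 and 83.6 against 56.1 and 83.5 CPM. Some placements rest on small margins, as in clusters 1 and 10, where stress replicate 2 was close to control replicate 2. In cluster 11, counted among the 9, control replicate 1 had 62.36 CPM from 13 cut sites and stress replicate 1 had 62.46 CPM. In cluster 14 the counts were few, with 8, 16, 35 and 43 cut sites in control 1, control 2, stress 1 and stress 2.

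**Figure D5:**
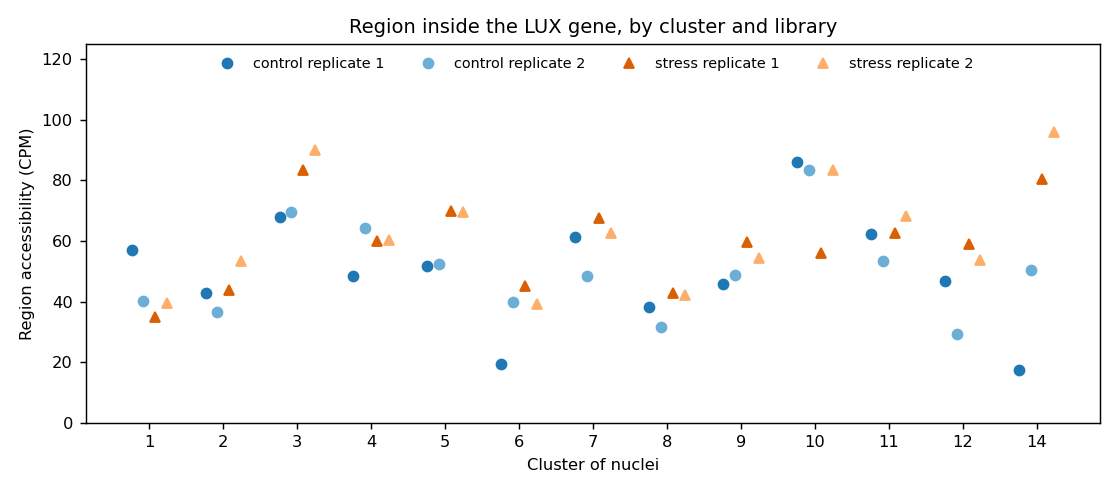
Accessibility of the region inside the LUX gene (CPM) by cluster and library; circles are control and triangles are stress. Stress libraries sit above controls in 9 of 13 clusters and below them in clusters 1 and 10, in some of these by a small margin.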

How the data were processed

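Per the labels and the study's methods, 15000 nuclei per library were loaded for 10x multiome sequencing, and the authors used Cell Ranger ARC 2.0.2 on TAIR10 (the submitters' processing notes also name Signac 1.7.0 and Seurat 4.3.0). The authors deposited raw counts, not normalized: cut sites per barcode in peaks called in that library alone. Gene rows have no names and were not used.

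The members, gene lists and tests were chosen with earlier results of these data known. Called nuclei had over 1000 and under 100000 ATAC counts and over 1000 and under 25000 RNA counts, limits the study states. Its further limits on nucleosome signal and enrichment at gene starts need fragments and were not applied. Here 47991 nuclei were kept, far more than in the study. The part of these limits in that difference was not tested. No doublet caller was run. Peaks overlapping by at least 1 base were merged, and testing was restricted to the 18340 regions open in each of the 4 libraries. Gene accessibility is their sum over the gene body and 2 kb upstream (RefSeq TAIR10.1, the same nuclear sequence). Sums over the called nuclei of a library entered glmQLFTest of edgeR 4.0.16 (stress minus control, TMM, filterByExpr, two-sided), with Benjamini-Hochberg adjustment over all features, a threshold of 0.05, and SEs from the F statistic. DESeq2 1.42.0 was an alternative. On simulated data, 100% of changed genes were recovered at log2 changes of 0.5 and 1 (4.31% of calls false), and 97.0% and 100% of regions (5.29%). The simulation gave all features 1 dispersion and had no change smaller than 0.5. The largest change was 0.22 for a clock gene and 0.35 for a clock region, so recovery at such sizes was not tested. Separate cultures are not stated in the labels, so p-values measure the spread between libraries. Clock regions held 1304 to 9409 counts per library.

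Nuclei were clustered without the 19 clock regions (TF-IDF, components 2 to 30, 20 neighbours, Leiden resolution 1, leidenalg 0.10.2), and 601 nuclei in clusters under 50 nuclei in a library were left out. From other lists, genes past the threshold were named or, with none, the largest rise and fall of each list. Likeness was given for CCA1, LHY and TOC1 as the 3 highest Pearson correlations of mean log2 CPM.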

Additional observations from a re-analysis of the deposited data

How the results depend on the processing

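With 2 libraries a group, single libraries moved the counts most. Leaving out each library in turn gave 36 to 7947 regions past the threshold (210 with all), 133 to 10257 genes (204), 0 to 4 clock genes (0), 0 to 11 clock regions (1), 207 to 7228 gene tests within clusters (943) and 0 to 4 of the clock (0). DESeq2 gave 2270 regions, 1057 genes, 1 clock gene, 3 clock regions and 258 gene tests within clusters, and none of the clock there. Library totals in place of TMM gave 59 regions, 74 genes and 0 clock regions. Without the top 5% of nuclei there were 106 regions, 60 genes and 0 clock regions, and with the same nuclei per cluster 0 clock regions. Peak width as an offset gave 425 regions, and regions of no other gene gave 48 genes. All merged regions gave 0 regions and 0 genes past the threshold in edgeR (4196 and 3167 at an unadjusted p under 0.05), hence 0 clock regions, with a count of 0 set where a library had no peak and a biological coefficient of variation of 1.13 and 0.801; DESeq2 was not run on that table.

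The labels do not say whether libraries with the same replicate number were made together. Deviations of libraries with the same number correlated at -0.00918 over regions and 0.00717 over genes. With 2 libraries a group these values cannot settle whether the libraries were paired. With the replicate block there were 865 regions, 1940 genes (8.20%), 1 clock gene (LUX, adjusted p 0.0248), LNK4, RVE7 and CKB1 of the other lists (adjusted p 0.00204, 0.0154 and 0.00256), 2152 gene tests within clusters and 1 of the clock (PRR5 in cluster 4, 0.37, adjusted p 0.0384). Leiden resolution 0.5 gave 1418 gene tests within clusters, 2 of the clock, and log2 ranges over clusters of 0.28 for TOC1, 0.68 for PRR5, 0.37 for PRR7, 0.36 for GI, 0.51 for ELF4 and 0.52 for LUX (0.73, 1.02, 0.67, 0.68, 0.68 and 0.95 at resolution 1). Without the top 5% of nuclei the range of GI was 0.88. The cause of these shifts was not tested.

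Changes close to 0 turned sign, all on the log2 scale. TOC1 was 0.0091 with library totals, 0.0026 without the top 5% of nuclei, 0.0098 with the same nuclei per cluster, 3.9e-05 with fragments and 0.014 with the width offset, and -0.050 to 0.050 without a library. Its start region was 0.0065 with all barcodes, 0.040 with the same nuclei per cluster, 0.0031 with fragments and 0.017 with the width offset, and -0.070 to 0.071 without a library; its upstream region was -0.100 to 0.065 without a library. The PRR7 3′ region was 0.0052 without the top 5% of nuclei, 0.0025 with fragments and 0.0097 with the width offset, and -0.045 to 0.030 without a library. With the width offset PRR9 was -0.020, its region -0.026, the ELF3 start region -0.047 and CKB2 -0.0059. Without a library the ranges were -0.16 to 0.025 for ELF4, -0.165 to 0.018 for its region, -0.062 to 0.027 for the CCA1 start region, -0.103 to 0.053 for the LHY 3′ region, -0.0012 to 0.123 for the PRR5 start region and -0.094 to 0.129 for the ELF3 start region. With all merged regions ZTL was 0.30, SKIP 0.46 and CKB2 -0.024, and CKB2 was -0.0035 without the top 5% of nuclei. With the same nuclei per cluster PHYA was -0.014, GRP8 -0.053 and CO 0.012, and CO was 0.012 in the gene start window. Without a library LKP2 was -0.12 to 0.00036, ZTL -0.83 to 0.34, CKB2 -0.025 to 0.034 and CO -0.11 to 0.033. Comparing each named gene or region with each alternative, 665 values kept direction and side of the threshold, 47 kept direction and newly passed, 6 no longer passed and 43 turned sign, of which ZTL without control replicate 1 (0.34, adjusted p 3.09e-05) also passed.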
